A study of Caenorhabditis elegans with 2 samples.

Results

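The data come from ChIP-seq, the sequencing of DNA recovered together with a protein, against SNPC-4 in *Caenorhabditis elegans* L2 larvae taken as whole organisms. The only group comprised 2 biological replicates of strain OP179, whose genotype is unc-119(ed3) III; wgIs179, with males and females pooled and age unknown. The wgIs179 insertion supplies eGFP-tagged *snpc-4* beside the *unc-119* mutation, and fragments were 150 to 350 bp long. Described here are the SNPC-4 peaks that lie between protein-coding genes and away from their promoters. They were taken from the ce11 list of peaks that passed IDR, a procedure that keeps peaks ranked reproducibly across lists. A peak belonged to this set when its summit, the position of its highest point, lay outside every protein-coding gene body and more than 500 bp from every protein-coding 5′ end. In addition, no snRNA, snoRNA, tRNA, miRNA, piRNA or sls- (spliced leader RNA) gene could lie within 250 bp. Genes of those classes are called listed noncoding genes below. Of 1839 nuclear IDR peaks, 453 met these conditions, which is 24.6% (exact 95% interval 22.7 to 26.7, counting error only). The 1839 are themselves 6.14% of the 29975 nuclear candidate peaks of the list pooled over both replicates. Of the nuclear peaks, 1331 had summits outside coding gene bodies, 540 of these also lay over 500 bp from a coding 5′ end, and 87 of the 540 were removed because of a listed noncoding gene.

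SNPC-4 belongs to SNAPc, the complex that activates transcription of small nuclear RNA genes. In animals SNAPc binds the proximal sequence element, a short sequence upstream of small nuclear RNA genes, and recruits RNA polymerase II or RNA polymerase III. The polymerase III genes of this kind also carry a TATA box downstream of the element. In *C. elegans* SNPC-4 is also known at spliced leader RNA genes and at clusters of piRNA genes. Intergenic DNA in this compact genome holds distal regulatory elements, noncoding RNA genes that lie outside the listed classes, transposon-derived repeats and, on the X chromosome, recruitment sites of the dosage compensation complex.

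The files held peak positions and the authors' peak strength, called signal here. No read count was at hand, so depth was unknown, and signals are set beside each other only within a list. The signal threshold of the IDR list was 28.0, and all its peaks came from a pooled list with 29975 nuclear candidates. Candidates below that threshold whose summits met the same position rule are called weaker candidates, and there were 8689 of them. Because whole animals were used, a signal cannot be assigned to a tissue, and a weak signal in many cells cannot be told apart from a strong one in few.

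The 2 strongest intergenic peaks lay just upstream of noncoding RNA genes, and 4 genes under intergenic peaks shared a sequence arrangement at their starts. The 4 windows below, from RefSeq's WBcel235 assembly, run from 90 bases before to 24 bases after the annotated RNA 5′ end on the RNA's strand. They are F08G2.13 (chrII:13834499-13834613, minus strand), C18C4.17 (chrV:5576132-5576246, plus strand), M163.12 (chrX:14477455-14477569, plus strand) and F08G2.12 (chrII:13834930-13835044, minus strand). Capitals mark TATATA and, after the RNA start, GGTCCGG. The windows are shown because the same letters recur near the RNA starts of peaks whose signals range widely. All 4 genes are annotated as ncRNA with no further class.
F08G2.13: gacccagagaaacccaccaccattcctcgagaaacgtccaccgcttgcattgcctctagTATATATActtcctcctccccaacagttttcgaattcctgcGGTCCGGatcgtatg
C18C4.17: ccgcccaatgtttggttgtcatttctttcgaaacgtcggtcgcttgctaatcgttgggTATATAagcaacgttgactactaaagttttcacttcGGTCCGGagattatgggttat
M163.12: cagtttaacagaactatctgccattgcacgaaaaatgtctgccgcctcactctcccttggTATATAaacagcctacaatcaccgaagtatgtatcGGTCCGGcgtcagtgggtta
F08G2.12: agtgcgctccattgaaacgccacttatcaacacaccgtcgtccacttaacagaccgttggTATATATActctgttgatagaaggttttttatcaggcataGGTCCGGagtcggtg

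In these 4 genes TATATA began 30 to 32 bp upstream of the annotated start. TATATA followed after 10 to 40 bases by GGTCCGG was searched on both strands of the whole nuclear genome, a search chosen after the sequences were seen, and was found at 31 places. At 13 of these places an annotated noncoding RNA started within 20 bp on the same strand, and 10 of the 13 had an IDR summit within 150 bp. The 10 places shared 9 peaks, 4 of which were intergenic peaks of this set. Others were assigned to coding promoters (W01D2.7 and W01D2.8), a coding gene body (CD4.18) and listed noncoding genes (mir-2214 with B0361.13, and M163.13). At the 18 places without an annotated RNA start, 0 had an IDR summit within 150 bp, which allows up to 16.7%. The 10 include the 4 places from which the arrangement was read.

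A second recurring arrangement was AACCC followed, after 6 bases, by TGTC. It was chosen after values had been seen, and was searched on both strands within 50 bp of every summit. Of the intergenic peaks, 28 of 453 held it. The windows below are 101 bases centred on the summit, with both words of the arrangement in capitals, for 5 of the strongest of the 28. They are named by the nearest coding gene: *dmd-6* (chrIV:14612241-14612341, plus strand), Y15E3A.5 (chrX:15345500-15345600, plus strand), Y44A6D.5 (chrV:20803653-20803753, plus strand), *mrp-5* (chrX:14938321-14938421, minus strand) and F54E4.3 (chrX:14637597-14637697, plus strand). They are shown because the words are extended alike, with CGG before AACCC in 4 of the 5 and GG after TGTC in all 5.
dmd-6: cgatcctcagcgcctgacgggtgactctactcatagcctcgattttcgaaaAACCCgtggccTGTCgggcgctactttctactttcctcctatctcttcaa
Y15E3A.5: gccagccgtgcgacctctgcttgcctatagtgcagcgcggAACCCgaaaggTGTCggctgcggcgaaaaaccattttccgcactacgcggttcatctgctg
Y44A6D.5: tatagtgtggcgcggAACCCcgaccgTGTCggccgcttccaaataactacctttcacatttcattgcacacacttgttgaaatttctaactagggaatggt
mrp-5: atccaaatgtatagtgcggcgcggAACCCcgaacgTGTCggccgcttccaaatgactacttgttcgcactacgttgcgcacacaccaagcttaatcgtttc
F54E4.3: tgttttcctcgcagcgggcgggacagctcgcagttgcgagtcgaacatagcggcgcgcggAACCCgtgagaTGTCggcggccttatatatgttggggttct

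A set of intergenic peaks on X held the word CGCGCAGGG. These letters are part of the MEX motif, which is known from the recruitment sites (rex sites) where the dosage compensation complex is loaded onto X in hermaphrodites. The word was searched after the sequences of the strongest X peaks had been seen, and no map of rex sites was used here. Of the 7 peaks with the full word within 50 bp of the summit, 5 are shown as windows of 51 bases centred near the word, which is in capitals. Their nearest coding genes are W02H3.3 (chrX:11094204-11094254, minus strand), *nspc-17* (chrX:14525878-14525928, minus strand), *hpk-1* (chrX:4209244-4209294, minus strand), *ins-39* (chrX:1345035-1345085, plus strand) and *cdk-4* (chrX:13514537-13514587, plus strand).
W02H3.3: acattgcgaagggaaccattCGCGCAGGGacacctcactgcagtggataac
nspc-17: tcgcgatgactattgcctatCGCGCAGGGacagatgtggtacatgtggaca
hpk-1: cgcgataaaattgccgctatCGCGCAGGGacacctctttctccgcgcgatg
ins-39: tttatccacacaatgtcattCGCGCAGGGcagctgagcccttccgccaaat
cdk-4: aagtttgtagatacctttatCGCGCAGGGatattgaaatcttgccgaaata

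The most frequent of the words examined was AGACGCAG, found in 62 of the 453 intergenic peaks. Windows of 101 bases around 2 of their summits are shown, with AGACGCAG and runs of GAGAGAGA in capitals. The second holds only shorter GA runs, which read tctctct on the strand shown. The windows are shown because they differ in whether the full GAGAGAGA is present. They lie nearest to Y17G7B.18 (chrII:12102546-12102646, plus strand) and to *aakg-1*, which encodes a gamma subunit of AMP-activated kinase (chrIII:12583626-12583726, minus strand).
Y17G7B.18: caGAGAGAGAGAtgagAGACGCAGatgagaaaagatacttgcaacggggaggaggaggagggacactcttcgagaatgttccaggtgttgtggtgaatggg
aakg-1: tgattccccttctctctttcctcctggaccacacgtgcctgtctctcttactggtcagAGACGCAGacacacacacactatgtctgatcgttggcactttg

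Most intergenic peaks were of ordinary strength, and a few were among the strongest of the list. Their pooled signal had a median of 41.0, with quartiles of 33.4 and 57.1 and a range of 28.0 to 2859. The medians were 44.0 for 909 coding promoter peaks, 40.4 for 253 peaks in gene bodies away from promoters and 52.1 for 224 peaks at listed noncoding genes. A signal of at least 100 was reached by 35 intergenic peaks (7.73%), against 7.04% of promoter peaks, 8.30% of gene body peaks and 33.5% of peaks at listed noncoding genes. Of the 195 nuclear IDR peaks that reached 100, 35 were intergenic, 64 in promoters, 21 in gene bodies and 75 at listed noncoding genes. Of the 50 strongest nuclear IDR peaks 1 was intergenic, of the 100 strongest 6 were, and of the 250 strongest 47 were (18.8%).

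**Figure D1:**
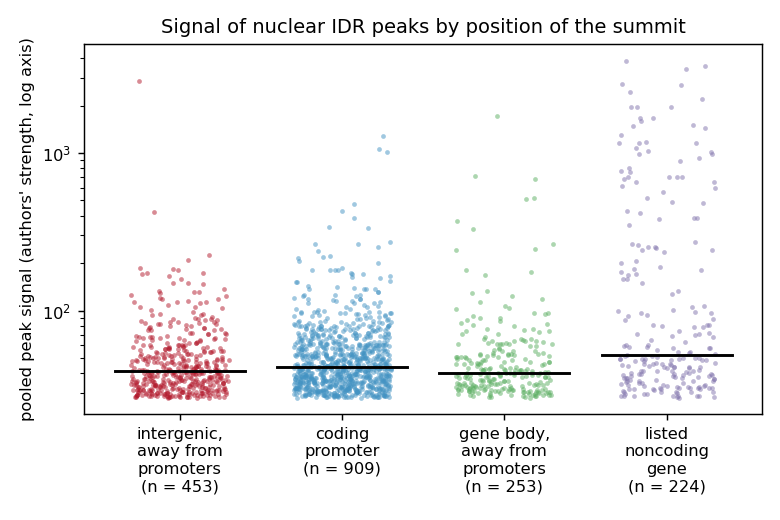
Pooled signal (log axis) of every nuclear IDR peak by the position of its summit, with 1 point for each peak and a line at the median. The intergenic peaks (left) have a median of 41.0 and a single peak above 1000, whereas the peaks at listed noncoding genes (right) extend upwards to 3852.

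Passing IDR was less common for intergenic candidates than for candidates as a whole. Of 9142 pooled candidates that met the position rule, 453 were in the IDR list, or 4.96% (exact 95% interval 4.52 to 5.42). The background over all nuclear candidates was 6.14%. Among candidates in coding promoters the share was 11.1%, at listed noncoding genes 9.71% and in gene bodies away from promoters 2.45%. The intergenic share therefore lay between that of promoters and that of gene bodies. Since the list is a threshold on pooled signal, these shares say how often a candidate of each kind was strong.

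The intergenic peak with the highest signal lay at F08G2.13 on chromosome II. It had a pooled signal of 2859, with 669 in replicate 1 and 2213 in replicate 2, and ranked 4 in the pooled list and in both replicate lists. Its summit was 56 bp upstream of the start of F08G2.13, an ncRNA gene of 75 bp, and 522 bp past the 3′ end of *ins-37*, which encodes an insulin-like peptide. The next peak, at C18C4.17 on V, had a signal of 421, with 109 in replicate 1 and 313 in replicate 2. It lay 44 bp upstream of that ncRNA gene and 294 bp past the 3′ end of *klc-2*, a kinesin light chain gene. These were the only intergenic peaks with signals above 300 in the pooled list.

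Below them the 18 next strongest peaks had pooled signals from 130 to 225, replicate 1 signals from 19.5 to 60.2 and replicate 2 signals from 89.5 to 168. All 20 had a peak in both replicates. X held 11 of the 20. Noncoding RNA genes outside the listed classes lay within 250 bp of 5, in every case with the summit upstream of the RNA start. The paired words were found in 2, the word GCGCAGGG in 3 and AGACGCAG in 1, and 9 had none of these. Among the 9, the peak between F22H10.2 and its convergent neighbour on X had a signal of 225, with 51.3 in replicate 1 and 168 in replicate 2. The peak 5056 bp past the 3′ end of *adm-2*, which encodes an ADAM family metalloprotease, had a signal of 210, with 41.6 in replicate 1 and 165 in replicate 2. Others of the 9 lay nearest to T27A8.7, F52B10.3 and F55G7.5 on X, T26G10.1, *daf-4* and *sup-26* on III, and *egrh-2* on IV. Of these genes *daf-4* encodes a type II receptor of the TGF-beta family and *sup-26* an RNA-binding protein.

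The 3 strongest intergenic peaks of each chromosome differed widely in strength. On II the next strongest, at F08G2.12 and near the sperm protein gene *msp-50*, had signals of 136 and 118. On V they were near Y44A6D.5 (115) and W08G11.1 (101). On III the 3 strongest, near T26G10.1, *daf-4* and *sup-26*, had signals of 158, 134 and 130. On IV they lay near *dmd-6* (187), *egrh-2* (147) and *madf-1* (83.0). On I they lay near the neuropeptide gene *nlp-40* (165), W08E3.4 (119) and *tin-13* (85.3). On X they lay near F22H10.2, *adm-2* and W02H3.3 (182). The X chromosome had no peak as strong as those at F08G2.13 and C18C4.17, but 23 of its 122 intergenic peaks were among the 250 strongest nuclear IDR peaks, against 24 of 331 on the autosomes.

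At the low end, the 5 weakest intergenic peaks had pooled signals from 28.0 to 28.1 and lay near *sup-1*, *gpa-6*, *olrn-1*, *nhr-61* and F14B6.3. Their replicate 2 signals ranged from 15.8 to 24.0. In replicate 1, 4 of them had signals from 3.49 to 9.69, and the *olrn-1* peak had no replicate 1 peak. The weaker candidates just outside the list had signals of 27.99 and 27.98, near *olrn-1* and Y48C3A.5, so no gap separated the set from the candidates below it. At the 500 bp limit the nearest peaks inside the set, near *ubql-1* and K09E9.4, both lay 506 bp from a coding 5′ end with signals of 43.2 and 43.3. The nearest outside it, near K12H4.5 and Y59A8B.24, lay at 497 and 495 bp with signals of 85.0 and 87.8. At the 250 bp limit the nearest inside lay 257 bp from the snoRNA gene R166.10 (signal 41.4) and 291 bp from a tRNA gene (signal 105, near C34D10.1). The nearest outside lay 250 bp from the snoRNA gene C26C6.13 (signal 31.5) and 244 bp from a piRNA gene (signal 34.9).

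Noncoding RNA genes outside the listed classes were found near 1 in 5 intergenic peaks, more often than near weaker candidates. Such a gene lay within 250 bp of 91 of 453 summits (20.1%, exact 95% interval 16.5 to 24.1), against 9.68% of weaker candidates and 6.61% of all genome bases that meet the position rule. Of these genes 87 are annotated as ncRNA and 4 as lincRNA. The summit lay inside the gene in 47 cases, which is 10.4% of the intergenic peaks, against 3.84% of weaker candidates and 2.43% of rule-matching bases. It lay upstream of the RNA 5′ end in 26 cases and past the 3′ end in 18.

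The position relative to the RNA start differed between strong and weak peaks. All 8 of the 91 peaks with a signal of at least 100 had their summit upstream of the RNA 5′ end, 26 to 94 bp away. Of the 10 with signals from 60 to 100, 4 lay upstream and 6 inside the gene. Of the 73 with signals under 60, 14 lay upstream, 41 inside and 18 past the 3′ end. The upstream peaks had a median signal of 53.0, the inside peaks 41.2 and the peaks past the 3′ end 37.6. The 3 ranges overlapped below 55.1, and only upstream peaks exceeded 87.2.

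The 8 strong peaks were those of the 4 genes shown above and 4 others. One of these was K02B9.6 on X, with the summit 37 bp upstream of a gene of 54 bp and 3437 bp from *alg-1*, which encodes an Argonaute protein of the miRNA pathway. This peak had a pooled signal of 181, with 47.3 in replicate 1 and 130 in replicate 2. M163.12 had a signal of 170, with 32.8 in replicate 1 and 138 in replicate 2, and the peak lay 573 bp from the nearest snRNA gene and had 2 other copies in the genome. F08G2.12 had a signal of 136, with 60.2 in replicate 1 and 89.5 in replicate 2, and the summit of its peak lay 463 bp from that of F08G2.13. The others were K08B5.8 on X (124), W08E3.5 on I (119) and F26F4.14 on III (108). TATATA was found within 50 bp of the summit in 3 of the 8 and in none of the 83 weaker peaks beside noncoding RNA genes, a count of 0 that allows up to 3.61%. At F08G2.12 the letters shown above lay farther from the summit. The 3 are among the peaks whose sequences prompted the search. Over all intergenic peaks TATATA was in 17 of 453 (3.75%, exact 95% interval 2.20 to 5.94), against 3.99% of weaker candidates and 3.84% of rule-matching windows, so the set as a whole was at background. The 8 genes had a median length of 88.5 bp, whereas the genes beside peaks with signals under 60 had a median length of 149 bp.

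Examples with the summit inside the noncoding RNA gene were F25D1.10 on V (signal 87.2, summit 143 bp from the start of a gene of 148 bp), K10H10.14 on II (76.5, at 169 of 284 bp) and linc-128 on V (72.0, at 607 of 2302 bp). They are the 3 strongest of the 47 and were chosen after their values were seen.

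**Figure D2:**
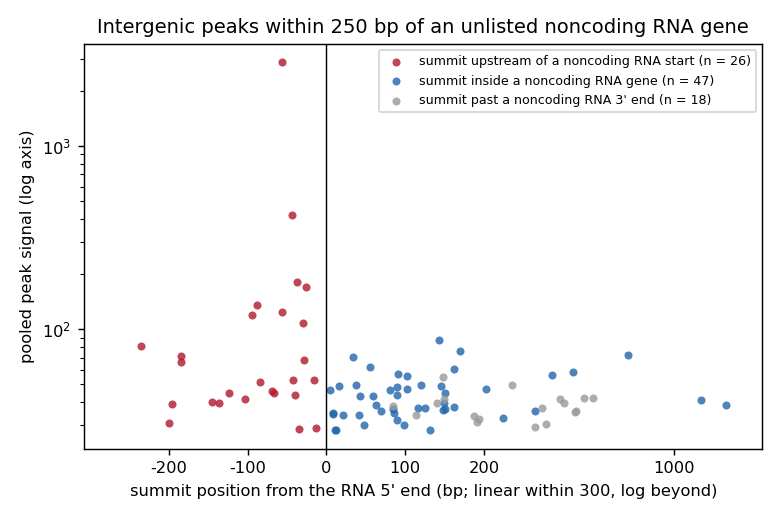
Position of the summit from the RNA 5′ end (x axis, bp, negative upstream, log scale beyond 300 bp) and pooled signal (log axis) for the 91 intergenic peaks within 250 bp of an unlisted noncoding RNA gene, with 1 point for each peak. The 8 peaks with a signal of at least 100 all lie 26 to 94 bp upstream of the start, and the peaks inside genes stay at or below 87.2.

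Other noncoding genes known to be transcribed by RNA polymerase III were also looked for, together with the remaining rRNA genes. Of the 453 summits 0 lay within 250 bp of an rRNA, RNase P, RNase MRP or Y RNA gene found by biotype or name. There were 38 such genes, and the 0 allows a share of up to 0.662%. The share of rule-matching bases this near to such genes was not computed, so the 0 cannot show that peaks avoid them. A gene annotated as ncRNA without such a name was not counted, and this includes the genes shown above with TATATA. Whether their RNAs belong to any of these kinds was not tested, so the 0 does not cover them. The core of the tRNA B box, GTTCGANNC, an internal promoter element of tRNA genes, was found within 50 bp of 6 summits (1.32%, exact 95% interval 0.488 to 2.86). The share was 0.598% in weaker candidates and 8.04% in peaks at listed noncoding genes. Those genes include tRNA genes, which the rule keeps over 250 bp from every intergenic summit, so the second contrast follows in part from the rule. Over 101-base windows laid end to end through the rule-matching bases the share was 0.712%, within the interval for the intergenic peaks.

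Pseudogenes were rare near these summits. A pseudogene lay within 250 bp of 8 intergenic peaks (1.77%, exact 95% interval 0.765 to 3.45), against 4.95% of weaker candidates and 12.7% of rule-matching bases. The 8 had signals from 31.3 to 72.5, the highest near Y17D7C.2 on V. In 2 of the 8, near *fbxc-24* and *sgn-1* on II, the summit lay inside the pseudogene, with signals of 63.4 and 31.3.

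Intergenic peaks lay nearer to coding gene starts than the rule-matching sequence around them. The distance to the nearest coding 5′ end had a median of 1604 bp, with quartiles of 937 and 3135 bp and a range of 506 to 15038 bp. The median was 2089 bp for weaker candidates and 2199 bp for rule-matching bases. A distance of 500 to 1000 bp was found for 126 peaks (27.8%, exact 95% interval 23.7 to 32.2), against 20.7% of weaker candidates and 18.6% of bases. Over 5000 bp lay 39 peaks (8.61%, 6.19 to 11.6), against 13.6% and 16.1%. The lower limit of 500 bp is set by the rule, so the distances describe only what lies beyond it.

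Gene ends did not stand out in the same way. The nearest coding 3′ end lay at a median of 2731 bp from the intergenic summits, 2994 bp from weaker candidates and 2738 bp from rule-matching bases. A coding 3′ end within 500 bp was found for 60 peaks (13.2%, 10.3 to 16.7), against 15.9% of weaker candidates and 14.3% of bases. For 179 peaks (39.5%, 35.0 to 44.2) the nearest coding gene presented its 3′ end, against 41.0% of weaker candidates and 45.4% of bases. Among the 20 strongest it did so for 14. The summit nearest to a coding gene lay 4 bp past the 3′ end of F19H6.6 on X, with a signal of 94.9.

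By the direction of the flanking coding genes, gaps with both genes pointing inwards held the fewest peaks for their extent. Convergent gaps held 27 peaks (5.96%, exact 95% interval 3.96 to 8.55), against 8.44% of weaker candidates and 13.3% of rule-matching bases. Tandem gaps held 264 (58.3%, 53.6 to 62.9), against 56.5% and 54.7%. Divergent gaps, with both genes pointing outwards, held 162 (35.8%, 31.3 to 40.4), against 35.0% of weaker candidates and 31.8% of bases. The gaps with intergenic peaks had a median length of 5235 bp, against 6311 bp for weaker candidates and 6462 bp for rule-matching bases. Convergent gaps held 4 of the 20 strongest peaks, those near F22H10.2, W02H3.3, T27A8.7 and *nlp-40*.

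The 5 peaks farthest from any coding gene lay on X, III and IV. Near *psa-3* on X, a homeobox gene, the summit was 15038 bp away, with a signal of 37.3, 6.68 in replicate 1 and 32.0 in replicate 2. In the same gap lay 2 peaks 10671 and 8350 bp from *svh-5*, with signals of 36.1 and 41.5. The windows of the *psa-3* peak and the weaker *svh-5* peak had 114 and 118 other copies in the genome. The others were 9993 bp from *dmd-6* on IV (28.5, with no replicate 1 peak) and 8275 bp from *aakg-1* on III (82.4). The last was well above the median signal of 41.0, and the highest of the others was 41.5.

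Of the 6 chromosomes X held the most intergenic peaks, as it did for all nuclear IDR peaks. X held 122 (26.9%, exact 95% interval 22.9 to 31.3), against 31.6% of gene body peaks (25.9 to 37.7), 16.1% of peaks at listed noncoding genes, 12.2% of coding promoter peaks and 19.0% of all nuclear IDR peaks. The intervals of intergenic and gene body peaks overlapped. X also held 23.6% of the rule-matching bases and 26.1% of the weaker candidates, both within the interval. The numbers elsewhere were 83 on II, 69 on I, 68 on III, 62 on V and 49 on IV. Set against the rule-matching sequence, there were 18.7 peaks per Mb on X and 15.6 on the autosomes together. Single chromosomes had 20.7 on I and on III, 19.3 on II, 12.3 on IV and 9.88 on V. X was therefore not the densest chromosome by this measure, and V was the sparsest.

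**Figure D3:**
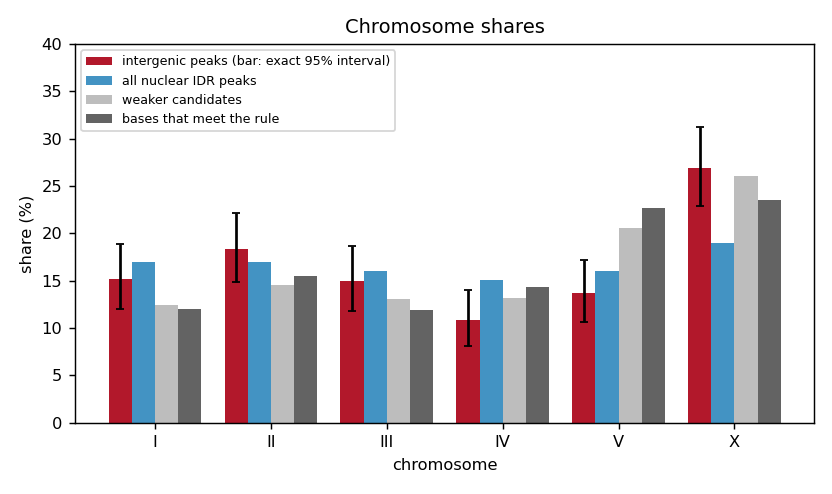
Share (%) of each chromosome in the 453 intergenic peaks, all 1839 nuclear IDR peaks, the 8689 weaker candidates and the bases that meet the position rule, with exact 95% intervals on the intergenic peaks. X has 26.9% of the intergenic peaks, 19.0% of all nuclear IDR peaks and 23.6% of the bases, and V has 13.7% of the intergenic peaks and 22.6% of the bases.

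Within X the peaks were uneven. With each chromosome divided into 3 equal parts, the right part of X held 71 of the 122 (58.2%) in 35.6% of its rule-matching bases, which is 30.5 peaks per Mb. The left part had 33 peaks (14.8 per Mb) and the middle part 18 (9.10 per Mb). The X peaks of all kinds showed the same order, with 180 of 349 nuclear IDR peaks in the right part, 99 in the left and 70 in the middle. On II the right part was also the densest, with 29.6 intergenic peaks per Mb, against 20.1 in the middle and 9.60 in the left part. The median signal was 47.3 in the right part of X, 40.2 in the left and 37.6 in the middle.

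X peaks also had the higher signals among intergenic peaks. Their median was 43.7 with an upper quartile of 74.6, against 40.5 and 52.9 for the autosomal peaks. A signal of at least 100 was reached by 19 of 122 X peaks (15.6%) and 16 of 331 autosomal peaks (4.83%). The interquartile ranges overlapped. The densest runs of intergenic peaks held 4 within 20 kb, and there were 4 such runs. On X, 3 peaks near K08B5.1 (signals 124, 50.7 and 125) and 1 near *ser-1* (44.7), a serotonin receptor gene, spanned 7417 bp. On V, 3 peaks near *lpin-1* (45.0, 41.1 and 35.7) and 1 near *letm-1* (49.0) spanned 3410 bp. Also on V, 3 peaks near W08G11.1 (30.9, 101 and 48.3) and 1 near *pptr-1* (72.2) spanned 4890 bp. On II, peaks near *sgn-1*, F07H5.13 and F07H5.7 (29.2 to 56.8) spanned 12053 bp.

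The letters GCGCAGGG, an inner part of the word shown for the X peaks, were found within 50 bp of 10 of 122 intergenic X peaks (8.20%) and of 0 of 331 autosomal ones, which allows up to 0.906%. Among weaker candidates they were found in 2 of 2264 on X and 3 of 6425 on autosomes. In 101-base windows of the rule-matching sequence the share was 0.0480% on X and 0.0272% on autosomes. Of the other nuclear IDR peaks on X, 2 of 80 in gene bodies held the letters, while 0 of 111 promoter peaks (up to 2.70% allowed) and 0 of 36 peaks at listed noncoding genes (up to 8.33% allowed) did. The longer CGCGCAGGG was in 7 X peaks and 0 autosomal ones. It occurs 33 times on X and 5 to 12 times on each autosome.

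The word was taken from sequences of the strongest X peaks, so its excess in intergenic X peaks over autosomal peaks and the other groups is not independent of that choice. The signals of the peaks that hold it are likewise a description, and their height follows in part from that choice. They had signals from 34.5 to 182 with a median of 105, against a median of 42.9 for the other 112 X peaks. They made up 6 of the 20 strongest X peaks, and 2 of the 10 lay below the X median of 43.7. The peak near W02H3.3 had a pooled signal of 182, with 27.3 in replicate 1 and 159 in replicate 2. The peak near *nspc-17* had 150, with 43.0 in replicate 1 and 120 in replicate 2. The peak near *hpk-1*, a homeodomain-interacting protein kinase gene, had 130, with 24.1 in replicate 1 and 104 in replicate 2. All 10 had a peak in both replicates, none had another copy in the genome and none lay within 250 bp of an unlisted noncoding RNA gene. The others lay near *ins-39* (113), an insulin-like gene, F25E2.2 (105), C34D10.1 (105), *cdk-4* (80.1), a cyclin-dependent kinase gene, *lgc-40* (51.8), R11.3 (39.4) and F20B6.9 (34.5). The words lay at a median of 19.0 bp from the summit.

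The paired words occurred in 28 intergenic peaks (6.18%, exact 95% interval 4.15 to 8.81), against 0.621% of weaker candidates and 0.146% of 101-base windows of the rule-matching sequence. Over all nuclear IDR peaks the share was 7.67%, within that interval, so the pair was not particular to intergenic peaks. The share was 1.54% in promoter peaks, 20.9% in gene body peaks away from promoters and 20.5% in peaks at listed noncoding genes. The last of these also had the highest signals, with a median of 424 among peaks with the pair, against 57.7 for the intergenic peaks with it. X held 20 of the 28, and 18 of these lay in its right part. On X the pair was in 16.4% of intergenic peaks, and on autosomes in 2.42%. The whole genome has 302 copies on X and 183 to 467 on each autosome, so X did not hold the most copies. In gene body peaks the pair was in 43.8% on X and 10.4% on autosomes. Peaks at listed noncoding genes went the other way, with 8.33% on X and 22.9% on autosomes, and weaker candidates had 0.574% on X and 0.638% on autosomes.

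Among the peaks with the pair, those near *dmd-6* and Y15E3A.5 were the strongest. The *dmd-6* peak had a pooled signal of 187, with 52.2 in replicate 1 and 133 in replicate 2. The Y15E3A.5 peak had 172, with 41.9 in replicate 1 and 128 in replicate 2. The peaks near K08B5.1 on X had 125 and 124, the latter being the peak already given above, 57 bp upstream of K08B5.8. The Y44A6D.5 peak on V had 115 and the peak near *mrp-5*, which encodes an ABC transporter, 93.8. At the low end were those near *svh-5* (36.1), F53H4.3 (36.0), T20D4.15 (31.7), F19D8.2 (29.8), H42K12.3 (29.6) and *olrn-1* (28.0). Of the 28, 25 had a replicate 1 peak and all had a replicate 2 peak. The pair lay at a median of 14.5 bp from the summit, and within 20 bp in 18 peaks.

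Many of the peaks with the pair lay in repeated sequence. Another genome copy, aligned by blastn over at least 80 bases at 80% identity or more, was found for 19 of the 28 windows, with up to 156 copies. Of the 20 windows on X, 16 had such a copy, and these 16 were all among the 18 in its right part. For all intergenic peaks another copy was found for 44 of 453 (9.71%, exact 95% interval 7.15 to 12.8), against 2.42% of promoter peaks and 25.3% of gene body peaks. Over all nuclear IDR peaks the share was 9.68%, so the set as a whole was at the share of the list. Of the 44, 28 were on X and 24 of those in its right part. A copy at 95% identity or more was found for 11 intergenic peaks (2.43%), against 2.18% of all nuclear IDR peaks. The windows near *dmd-6*, Y15E3A.5 and Y44A6D.5 had no other copy, while those near *mrp-5* and F54E4.3 had 156 and 37. Without the 44 peaks, the pair was found in 9 of 409 intergenic peaks (2.20%), a comparison added after seeing the data. X held 23.0% of the 409. How reads from such copies were placed was not tested.

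AGACGCAG and GAGAGAGA were in a smaller share of X than of autosomal intergenic peaks. Windows of rule-matching sequence over the whole genome differed in the same direction, by smaller factors. AGACGCAG, CGGAACCC and GCCGACAC are words that stood out when all IDR peaks were set against other candidates earlier, so their excess over weaker candidates is not independent of that choice. GAGAGAGA was chosen after values were seen, so its excess is not independent of the choice either. AGACGCAG was found in 62 intergenic peaks (13.7%, exact 95% interval 10.7 to 17.2), against 10.5% of all nuclear IDR peaks, just below that interval. The share was 11.6% in promoter peaks, 8.30% in gene body peaks, 2.23% in peaks at listed noncoding genes, 1.69% in weaker candidates and 0.609% in rule-matching windows. AGACGCAG was in 7 of 122 intergenic X peaks (5.74%) and 55 of 331 autosomal ones (16.6%). In rule-matching windows it was in 0.319% on X and 0.698% on autosomes, and the genome has 29.4 copies per Mb on X and 52.5 to 81.8 on the autosomes. Promoter peaks went the other way, with 17 of 111 on X (15.3%) and 88 of 798 on autosomes. GAGAGAGA was found in 52 (11.5%), against 6.31% of all nuclear IDR peaks, 4.62% of promoter peaks, 6.72% of gene body peaks, 2.16% of weaker candidates and 0.841% of rule-matching windows. It was in 4.10% of X and 14.2% of autosomal intergenic peaks, and in 0.577% of X and 0.922% of autosomal rule-matching windows. Both words were in 12 peaks. Among peaks with AGACGCAG the median signal was 43.8, near that of the whole set, and the strongest were those near *nlp-40* (165), F25E2.2 (105), Y17G7B.18 (88.8) and *aakg-1* (82.4). None of the 62 and none of the 52 had another genome copy.

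Of the other words, both that overlap the pair were above the share in weaker candidates and below that in gene body peaks. CGGAACCC, which overlaps the AACCC word, was found in 28 intergenic peaks (6.18%), against 0.345% of weaker candidates. Its share was 6.47% over all nuclear IDR peaks, 1.32% in promoter peaks, 19.0% in gene body peaks and 13.8% at listed noncoding genes. GCCGACAC, read on the other strand, overlaps the TGTC word, and was found in 37 (8.17%), against 0.806% of weaker candidates. Its share was 6.31% over all nuclear IDR peaks, 1.43% in promoter peaks, 20.2% in gene body peaks and 6.70% at listed noncoding genes. CTGTTTCA, a word of piRNA gene upstream regions, was found in 0 of 453, which allows up to 0.662%, against 0.610% of weaker candidates, so a difference was not detectable with this number of peaks. The rule had removed summits within 250 bp of a piRNA gene from both groups. Runs of 8 A bases were in 3.75% of intergenic peaks, against 15.4% of weaker candidates and 13.3% of rule-matching windows. Their share was about as low over all nuclear IDR peaks (3.21%), with 3.30% in promoter peaks and 1.58% in gene body peaks. The base composition moved with these shares. GC content over 101 bases had a median of 49.5% in intergenic peaks, against 47.5% in promoter peaks, 50.5% in gene body peaks and 32.7% in weaker candidates. Its part in the word shares was not tested. The pair, AGACGCAG, GAGAGAGA or GCGCAGGG was found in 139 intergenic peaks in all (30.7%), and 314 had none of them.

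**Figure D4:**
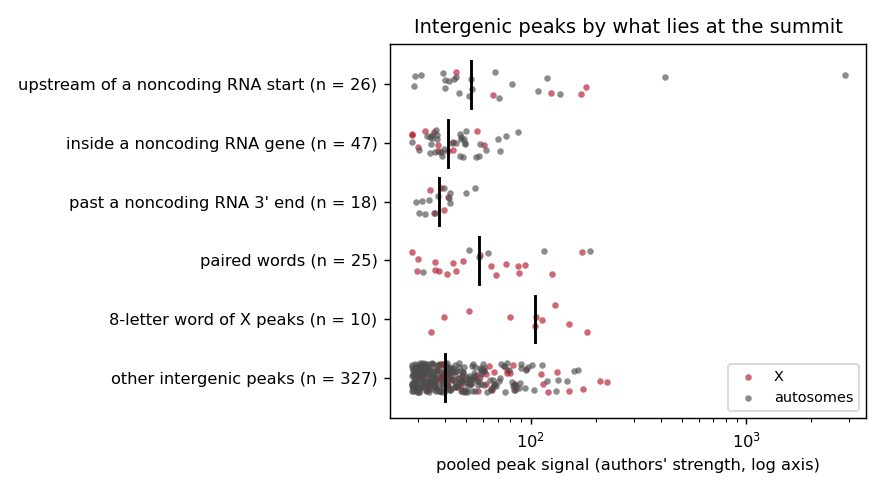
Pooled signal (log axis) of the 453 intergenic peaks by what lies at the summit, with 1 point for each peak, a line at the median and X peaks in red. Peaks beside noncoding RNA genes are grouped by summit position first, the rest by the paired words (25) or GCGCAGGG (10), and the other 327 have a median of 40.2. GCGCAGGG was taken from strong X peaks, so the high signals in its row follow in part from that choice.

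Nearly all intergenic peaks were found in replicate 2 and somewhat fewer in replicate 1. A replicate 1 peak overlapped 424 of 453 by at least 1 bp (93.6%, exact 95% interval 90.9 to 95.7), and a replicate 2 peak 451 (99.6%, 98.4 to 99.9). For all nuclear IDR peaks the shares were 94.8% and 99.6%, and for weaker candidates 32.3% and 76.9%. Intergenic peaks thus recurred in the replicates about as often as the list as a whole. The replicate 1 list held 21391 peaks and the replicate 2 list 30000. The 29 without a replicate 1 peak had pooled signals from 28.0 to 44.3. The 2 without a replicate 2 peak lay near *spc-1* on X (77.6, with 13.9 in replicate 1) and T25G3.3 on I (44.3), and the T25G3.3 peak had none in either replicate.

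Strong intergenic peaks were among the strong peaks of each replicate, and weak ones less often. Of the 50 strongest, 49 were among the 1839 strongest nuclear peaks of replicate 1 and all 50 among those of replicate 2. Of the 50 weakest, 13 were among those strongest peaks in replicate 1 and 25 in replicate 2, while 38 had some peak in both. A replicate peak could be matched to more than 1 pooled peak. For example, pooled peaks of 130 and 28.5 on III shared the same replicate signals, 29.5 in replicate 1 and 100 in replicate 2. Over the 423 peaks found in both replicates, Spearman's rho between the replicate signals was 0.38, against 0.50 over 1737 nuclear IDR peaks and 0.81 over 219 peaks at listed noncoding genes. These values describe peaks of shared libraries and selection on pooled signal, and carry no test. The median replicate signal was 10.9 in replicate 1 and 31.5 in replicate 2, in lists whose scales may differ.

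Summit positions followed replicate 2 more closely than replicate 1. The pooled summit lay at a median of 23 bp from the replicate 1 summit and 3 bp from the replicate 2 summit, against 18 and 2 bp over all nuclear IDR peaks. Both replicate summits were within 50 bp of the pooled one for 281 intergenic peaks (62.0%), against 65.6% of gene body peaks, 76.6% of promoter peaks and 87.1% of peaks at listed noncoding genes. Over all nuclear IDR peaks the share was 72.8%. Of the 50 strongest intergenic peaks, 46 had both summits this near. Distances to RNA starts given above are from the pooled summit.

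**Figure D5:**
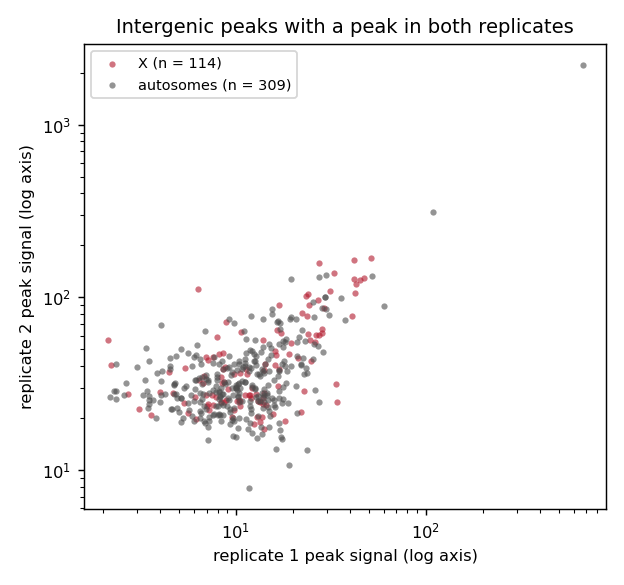
Replicate 1 signal (x, log axis) against replicate 2 signal (y, log axis) for the 423 intergenic peaks with a peak in both replicates, X peaks in red and autosomal peaks in grey. The F08G2.13 peak stands alone at 669 and 2213 and the C18C4.17 peak follows at 109 and 313, while the points as a whole have a rho of 0.38.

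Most intergenic peaks stood alone. The nearest other nuclear IDR summit lay at a median of 11891 bp, with quartiles of 3385 and 28958 bp, and within 1000 bp for 33 peaks. The nearest neighbour was a coding promoter peak in 185 cases, another intergenic peak in 159, a gene body peak in 67 and a peak at a listed noncoding gene in 42. The width given by the authors was 310 bp for 413 of the 453 peaks (91.2%), a fixed value for most of the list. Soft-masked bases, which mark repeats in the assembly, made up 18.4% of the 101-base windows, against 38.0% in weaker candidates. They made up 19.9% over all nuclear IDR peaks and 21.9% in promoter peaks.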

How the data were processed

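Signal is the strength per peak that the authors deposited. No source says if it is relative to depth. The aligner and peak caller are not given in the sources used here. Input to IDR were, per the deposited description files, the replicate lists and a pooled list made with a control. The deposited −log10 q values were not used to rank or choose peaks. The ce10 lists were not used here. Positions were set against genes of Ensembl release 115 (WBcel235) and sequences read from RefSeq. Peaks overlapped when they shared 1 bp. Rule-matching bases were sampled at 1 in 10 for distances and as 274173 windows of 101 bases for words. Copies were found with blastn 2.17.0 (e-value up to 1e-05, at least 80 bases at 80% identity). Intervals are exact (Clopper-Pearson) 95% intervals for counting error only. For a count of 0 the share said to be allowed is instead 3 counts of the total. There was 1 group, so no test was made. Named peaks were the 20 strongest, the 3 strongest per chromosome, the 5 weakest, those at the limits of the rule, the 5 farthest from coding genes and the densest runs. Other named peaks, the paired words, the GA run, the TATATA arrangement and the word on X were chosen after values were seen. Members and lists were chosen with earlier results of these data known. The functions were tested on simulated chromosomes. Alternatives changed each distance, the peak list, the summit, the overlap, the replicate and the word window. Python 3.11.15, numpy 2.4.6, pandas 2.3.3, scipy 1.17.1 and matplotlib 3.10.9 were used.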

Additional observations from a re-analysis of the deposited data

How the results depend on the processing

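Of 103 recomputed values over 14 results, 92 stayed within 1.5 times (the number of peaks) or within the interval of the reported value. With a 5′ end limit of 250 bp instead of 500 bp, 6.20% of rule-matching candidates were in the IDR list, the median signal was 42.5, and the nearest coding gene end was a 3′ end for 32.3%. With a limit of 1000 bp that last share was 47.1%, so it follows the limit chosen. In the stronger part of the IDR list, at or above its median signal, 201 peaks met the rule, 2.20% of candidates, with a median signal of 60.2. There 99.5% had a replicate 1 peak and 9.95% the paired words. The paired words were in 2.20% without the peaks that have another genome copy, and AGACGCAG was in 21.0% with 100 bp each side of the summit, settings added after seeing the data. With the rule applied to as many of the strongest peaks of 1 replicate alone, 442 (without replicate 1) and 479 (without replicate 2) peaks met it. X then held 26.7 to 27.6%, a noncoding RNA gene lay near 20.3 to 21.7%, a pseudogene near 1.04 to 1.36%, a 3′ end was nearest for 39.8 to 40.5%, and convergent gaps held 6.79 to 7.52%. The B box core was in 1.04 to 1.36%, the pair in 4.59 to 6.11%, GCGCAGGG in 7.58 to 8.47% of X peaks and AGACGCAG in 11.9 to 15.6%. No paired analysis was possible because there is only 1 group. Without read counts, weak peaks near the threshold of 28.0 could not be given an error.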
